A study of Mus musculus with 24 samples.

Results

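The genes described here are 8 neuropeptide genes grouped as cortical-type, namely Cort, Cck, Vip, Crh, Nppc, Tac2, Grp and Adcyap1. The name is a label for the list, and the cells that made this RNA were not identified. They were taken by name from the 24340 genes found in all 6 deposited tables, and all 8 were present in every table. The list was chosen by the FPKM values (defined below) of these same 4 groups and their differences, so the values below describe the 8 genes and cannot serve as a test of them. Striatal RNA was sequenced from male mice of 4 groups on a C57BL/6J background. R6/1 mice are hemizygous for a transgene that expresses exon 1 of human huntingtin with an expanded CAG repeat, and they model Huntington's disease as a single transgenic line. Wild type (WT) littermates served as controls. RGFP109, an inhibitor of HDAC1 and HDAC3, was given at 30 mg/kg by intraperitoneal injection 5 times a week for 3 weeks, and vehicle groups received the DMSO and saline solvent. Injections began at an age of 11 to 14 weeks and ended at 14 to 17 weeks, and tissue was taken 18 h after the last one. WT-vehicle held 5 libraries, R6/1-vehicle held 6, WT-RGFP109 held 6 and R6/1-RGFP109 held 7.

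Neuropeptides are cut from longer precursor proteins, stored in dense-core vesicles and released to act mostly on G protein-coupled receptors. In the neocortex many of them are made by classes of GABAergic interneurons, and some, among them Cck and Adcyap1, also by glutamatergic projection neurons. The striatum receives dense input from cortical projection neurons, holds few neurons of the cortical interneuron classes, and lies directly beneath the cortex in a dissection. Histone deacetylase inhibitors raise histone acetylation, and several peptide genes are textbook targets of transcription factors that recruit histone acetyltransferases, CREB above all. For these mice the study reported no difference between groups in bulk striatal acetylation at the histone site it measured.

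Promoter sequence was not given for Crh and Grp, so nothing is said of their motifs. It was given for the other 6 of the 8 genes (RefSeq, GRCm38.p6, which is mm10). The palindrome bound by CREB, TGACGTCA, did not occur in the 250 bases before any of their start sites, and 1.55% of 32851 mouse promoters of the same length held it. The shorter core TGACG, read on both strands (CGTCA on the other) and contained in the palindrome, occurred in 5 of the 7 promoters of these genes and in 17.8% of all promoters, or in 4 of the 6 genes and 19.8% of 27025 genes. These motifs were chosen after the promoters had been read, and a match is a description of letters and not of binding. The 120 bases before the start site are shown for the 4 genes with a core, because these include the gene that differed most after RGFP109 in R6/1 mice (Cort) and the one that differed least from WT (Adcyap1). Each reads 5′ to 3′ on the strand of the gene, with the core in capitals.
Cort (chr4:149126764-149126883, minus strand): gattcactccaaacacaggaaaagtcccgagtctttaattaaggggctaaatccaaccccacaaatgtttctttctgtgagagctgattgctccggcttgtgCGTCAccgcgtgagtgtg
Cck (chr9:121495695-121495814, minus strand): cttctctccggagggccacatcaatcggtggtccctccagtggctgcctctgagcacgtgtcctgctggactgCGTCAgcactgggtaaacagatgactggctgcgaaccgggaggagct
Vip (chr10:5639098-5639217, plus strand): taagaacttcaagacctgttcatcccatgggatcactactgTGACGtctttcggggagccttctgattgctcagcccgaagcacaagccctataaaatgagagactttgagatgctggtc
Adcyap1 (chr17:93198897-93199016, plus strand): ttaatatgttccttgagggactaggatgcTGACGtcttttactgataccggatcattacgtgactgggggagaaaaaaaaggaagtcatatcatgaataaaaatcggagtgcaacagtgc
The core began 18 bases before the start site in Cort, 47 in Cck, 79 in Vip and 91 in Adcyap1. The table lists another start site for Adcyap1, from which the same core lay 242 bases upstream. TATAAA, read on the strand of the gene only, lay 30, 147 and 157 bases upstream in Vip, 29 in Nppc and 58 before the other start site of Adcyap1, and 7.59% of all promoters held it. Tac2 held none of the 3 motifs in its window.

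Each table compares a pair of groups and gives 1 pooled FPKM (sequenced fragments of a gene, divided by its transcript length and by the depth of the library) per group. The values are therefore the authors' group values without any spread between libraries, and no difference below can be set against replicate error or tested. Whether 1 or a few libraries set a group value was not tested either. Each group appears in 3 tables that were scaled separately, and over genes the median gap between its values in a pair of these tables was at most 3.92%. Differences are given as log2 ratios after adding 0.1 FPKM to both values, always within the table of that pair of groups. Log2 differences beyond 0.5, the fold used by the study, were counted, and genes with a mean of at least 1 FPKM in the pair served as background. Markers of striatal projection neurons, the main cell class of the tissue named in the labels, were present at a summed 2146 to 2229 FPKM in WT-vehicle over the 3 tables, and none was listed at 0.

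In WT-vehicle striatum the 8 genes covered a wide range of levels. Cck encodes cholecystokinin and led the list at 282 FPKM, at rank 194 of 24340 genes. The other 7 lay between 3.07 FPKM (Crh) and 18.9 FPKM (Tac2), at ranks 11354 and 4919. FPKM is scaled for transcript length, so these levels can be compared between genes.

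Vehicle-treated R6/1 mice had lower values of all 8 peptide genes than WT-vehicle mice. Vip was at 23.8% of the WT level and Cort at 25.7%, Cck and Nppc at 35.4% each, and Adcyap1 at 69.3%. All 8 lay beyond 0.5 on the lower side, against a background of 10.2% of 13659 genes. None lay beyond it on the higher side, where the background was 3.84%. The count on the lower side was 7 when 1 FPKM was added in place of 0.1 (Adcyap1 at -0.42) and when group values were averaged over tables (Adcyap1 at -0.48). Their median log2 difference was -1.36, and that of all genes was -0.01. In a bulk sample, fewer cells of a type and less RNA per cell cannot be told apart.

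**Figure D1:**
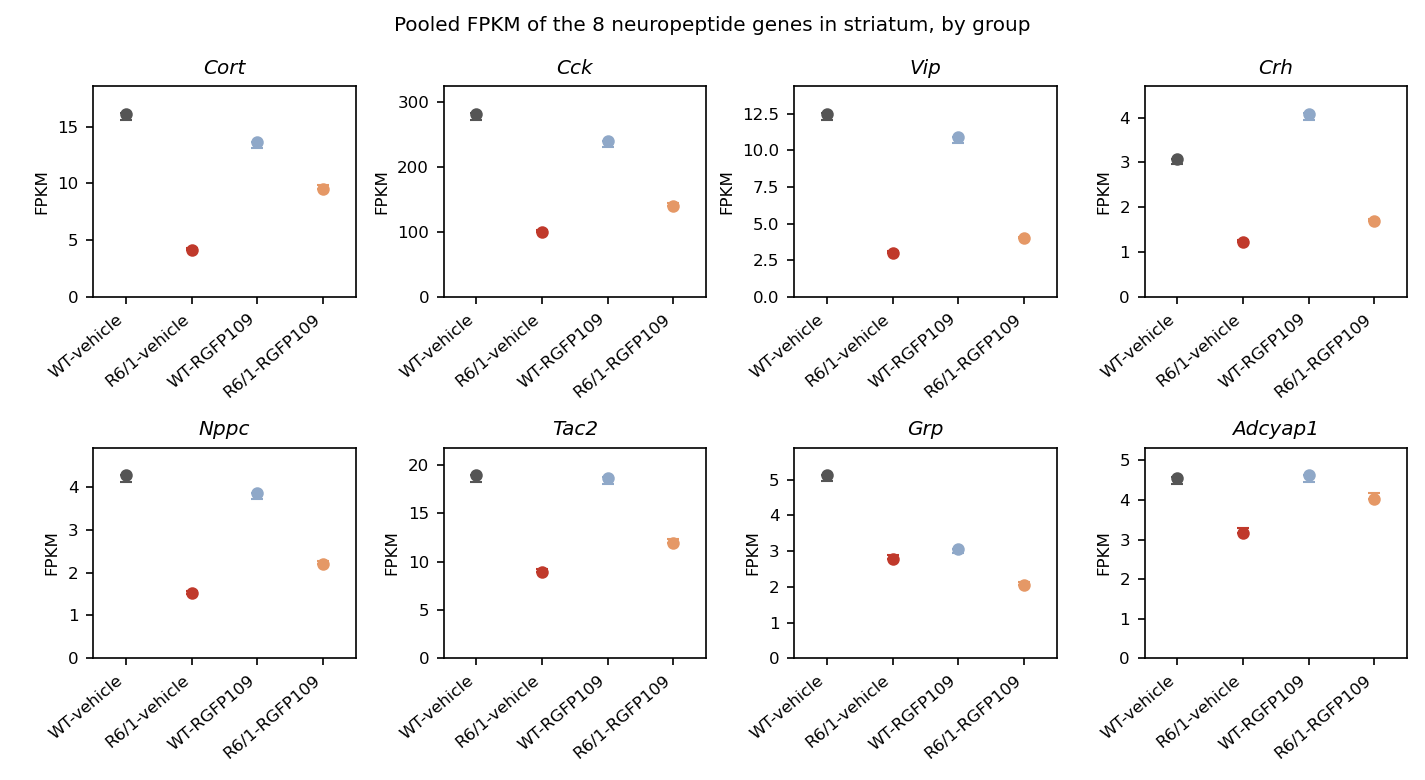
Pooled FPKM (y axis, linear and starting at 0, with its own scale for each gene) of the 8 peptide genes in the 4 groups (x axis). Points are the middle of the 3 deposited values of a group and the short bars their lowest and highest, a range of scaling and not of replicates. In each panel R6/1-vehicle lies below WT-vehicle, and R6/1-RGFP109 lies between them except for Grp.

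Cort encodes cortistatin, a relative of somatostatin made by cortical interneurons. It is a short gene of 2 exons on chromosome 4 from 149125191 to 149126741. It had 16.1 FPKM in WT-vehicle and 4.14 in R6/1-vehicle, a log2 difference of -1.94. With RGFP109, it had 13.6 FPKM in WT and 9.53 in R6/1 mice, a log2 difference of -0.51. Cort thus stood 2.29-fold higher in R6/1-RGFP109 than in R6/1-vehicle, the largest treatment difference among the 8 genes, and reached 58.9% of WT-vehicle.

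Cck is expressed by interneurons and by cortical projection neurons, and its product acts on the receptors encoded by Cckar and Cckbr. It lies on chromosome 9 from 121489824 to 121495694. Its value was 282 FPKM in WT-vehicle, 99.8 in R6/1-vehicle, 241 in WT-RGFP109 mice and 140.5 in R6/1-RGFP109 mice. R6/1-RGFP109 exceeded R6/1-vehicle 1.40-fold and stood at 49.7% of WT-vehicle.

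Vip encodes vasoactive intestinal peptide and marks a class of cortical interneurons that contact other interneurons. It lies on chromosome 10 from 5639218 to 5647614. It had 12.5 FPKM in WT-vehicle and 2.98 in R6/1-vehicle, a 4.20-fold lower value and the largest genotype difference of the 8. In RGFP109-treated mice it had 10.9 FPKM in WT and 3.99 in R6/1, a log2 difference of -1.43. Of the 8 genes Vip was the one furthest below WT in both treatment arms, and R6/1-RGFP109 reached 31.8% of WT-vehicle.

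Crh encodes corticotropin-releasing hormone, which starts the hypothalamic stress response and is also made in cortical interneurons. It lies on chromosome 3 from 19693401 to 19695396. It was the lowest of the 8 genes in every group except WT-RGFP109, with 3.07 FPKM in WT-vehicle and 1.21 in R6/1-vehicle. WT-RGFP109 had 4.09 FPKM and R6/1-RGFP109 1.69. Crh was higher after RGFP109 in both genotypes, by 0.40 in WT and 0.44 in R6/1 mice on the log2 scale, and the gap between genotypes was -1.27 with vehicle and -1.23 with drug.

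Nppc encodes C-type natriuretic peptide, the ligand of the guanylyl cyclase receptor Npr2. It has 3 exons on chromosome 1 from 86666293 to 86670573. It had 4.27 FPKM in WT-vehicle, 1.51 in R6/1-vehicle, 3.86 in WT-RGFP109 mice and 2.19 in R6/1-RGFP109 mice. The R6/1-RGFP109 value was 1.45-fold that of R6/1-vehicle and 51.2% of WT-vehicle.

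Tac2 encodes neurokinin B, which acts on the receptor Tacr3. It lies on chromosome 10 from 127724478 to 127731768. It had 18.9 FPKM in WT-vehicle and 8.94 in R6/1-vehicle, a log2 difference of -1.08. With RGFP109 it had 18.7 FPKM in WT and 12.0 in R6/1 mice. RGFP109 against vehicle stood at a log2 difference of -0.02 in WT and of 0.41 in R6/1 mice.

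Grp encodes gastrin-releasing peptide, the ligand of Grpr. It lies on chromosome 18 from 65873479 to 65886596, and the annotation places an antisense gene inside it that shares 0 exon bases with it. Grp had 5.12 FPKM in WT-vehicle, 2.79 in R6/1-vehicle, 3.07 in WT-RGFP109 mice and 2.06 in R6/1-RGFP109 mice. It was the one gene of the 8 that was lower after RGFP109 in both genotypes, by a log2 difference of -0.73 in WT and -0.43 in R6/1 mice. R6/1-RGFP109 was therefore further below WT-vehicle than R6/1-vehicle was, at 40.1% against 54.4%.

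Adcyap1 encodes PACAP, a peptide of the same family as that of Vip, made largely by excitatory neurons. It lies on chromosome 17 from 93199422 to 93205489. It had 4.57 FPKM in WT-vehicle and 3.16 in R6/1-vehicle, a log2 difference of -0.52 that barely passed the fold of 0.5. It had 4.63 FPKM in WT-RGFP109 and 4.04 in R6/1-RGFP109, and reached 88.0% of WT-vehicle, the nearest of the 8.

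**Figure D2:**
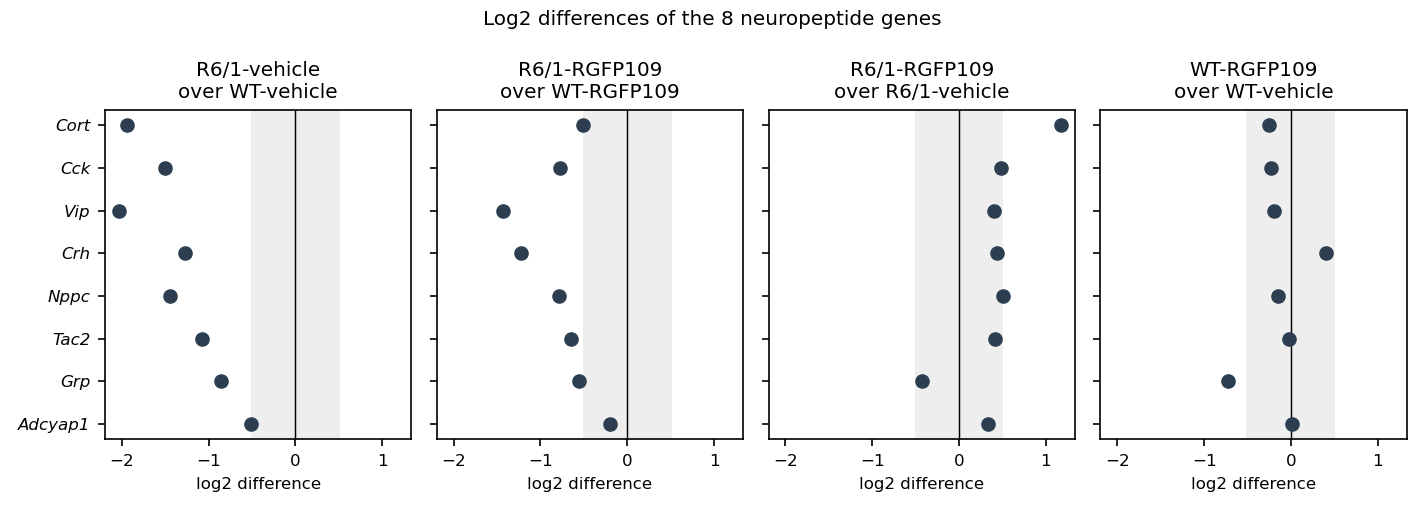
Log2 differences (x axis, first group over second, after adding 0.1 FPKM) of the 8 genes (y axis) in 4 comparisons, 1 panel each. The gray band spans -0.5 to 0.5. All 8 points lie left of it for R6/1-vehicle over WT-vehicle, while Cort and Nppc lie right of it for R6/1-RGFP109 over R6/1-vehicle and Grp lies left of it for WT-RGFP109 over WT-vehicle.

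The genotype gap was also measured among treated mice. In R6/1-RGFP109 against WT-RGFP109, 7 of the 8 genes were lower by over 0.5, with Adcyap1 the exception at -0.19, against a background of 8.58% of 13651 genes. None was higher by over 0.5, compared with 3.46% of all genes. Cort, at -0.51, only just passed. The count was 5 when 1 FPKM was added, without Cort at -0.47 and Grp at -0.41, and 6 with averaged tables, without Cort at -0.48. The median was -0.71, compared with 0.01 for all genes. Vip and Crh kept the widest gaps, at 36.5% and 41.3% of the WT-RGFP109 value.

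For the drug in R6/1 mice, R6/1-RGFP109 was set against R6/1-vehicle. The value was higher with RGFP109 for 7 genes and lower for Grp, and 7059 of all 13610 genes were above 0. Beyond 0.5 on the higher side were Cort at 1.18 and Nppc at 0.50, and the background was 1.55% of 13610 genes. With 1 FPKM added Nppc was at 0.35 and no longer passed. None lay beyond 0.5 on the lower side, where the background was 1.41%. Cck at 0.48, Crh at 0.44, Tac2 at 0.41, Vip at 0.40 and Adcyap1 at 0.33 fell short of the fold. The median of the 8 was 0.43, compared with 0.00 for all genes. This comparison and the one of the vehicle groups share the R6/1-vehicle value. A low value there makes the drug comparison more positive and the vehicle comparison more negative.

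The same drug in WT mice was read from WT-RGFP109 against WT-vehicle. The 8 genes had a median of -0.17, with Crh highest at 0.40 and Grp lowest at -0.73. Grp was the one gene beyond 0.5, on the lower side, with a background of 2.11% of 13621 genes. No gene passed on the higher side, where the background was 1.71%. Cort, Cck, Vip and Nppc lay between -0.25 and -0.15, and Tac2 and Adcyap1 within 0.02 of 0.

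The difference between the genotypes in the log2 value of RGFP109 against vehicle, R6/1 minus WT, was above 0 for all 8 genes. It was 1.42 for Cort, 0.72 for Cck, 0.65 for Nppc and 0.60 for Vip. It was 0.43 for Tac2, 0.32 for Adcyap1, 0.30 for Grp and 0.04 for Crh. The median was 0.52. Over 13288 genes the median was 0.01, with 51.8% above 0 and 2.33% above 0.5. This difference of differences rests on 4 pooled values a gene and was not tested. It subtracts the R6/1-vehicle value, so a low value there makes it more positive, and the 8 genes were chosen with these values known.

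Treated R6/1 mice were also set against untreated WT mice. In R6/1-RGFP109 against WT-vehicle, 7 genes were lower by over 0.5, against a background of 10.0% of 13653 genes, and none was higher, against 3.82%. Adcyap1 stood at -0.18. The median was -0.88. The remaining values ran from 31.8% of WT-vehicle for Vip to 62.9% for Tac2.

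Genes of neocortical glutamatergic neurons had medians near those of the peptide genes in both comparisons of drug with vehicle, and smaller differences between the genotypes. Slc17a7, the main vesicular glutamate transporter of cortical projection neurons, had the highest level of that list. In R6/1-vehicle against WT-vehicle, 8 of these 10 marker genes were lower by over 0.5, with a median of -0.71. In R6/1-RGFP109 against R6/1-vehicle all 10 were above 0 with a median of 0.43, the value found for the peptide genes, and 3 passed 0.5, among them Neurod6 at 0.51 and Neurod2 at 0.50. In WT-RGFP109 against WT-vehicle the median was -0.17, again that of the peptide genes. Between the RGFP109 groups, however, 1 of the 10 markers was lower by over 0.5 with a median of -0.19, compared with 7 of 8 and -0.71 for the peptide genes. For R6/1-RGFP109 against WT-vehicle it was 3 of 10 with a median of -0.24, compared with 7 of 8 and -0.88. The summed level of the list was 398 to 413 FPKM in WT-vehicle, 228 to 237 in R6/1-vehicle, 367 to 381 in WT-RGFP109 mice and 285 to 294 in R6/1-RGFP109 mice, and no gene was listed at 0. How much cortical tissue each sample held, and its part in the peptide values, was not tested.

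Markers of the cortical interneurons that derive from the caudal eminence, the class that holds Vip and Cck interneurons, had other values. In R6/1-vehicle against WT-vehicle 3 of 10 were lower and 1 higher, with a median of -0.30. Htr3a, a serotonin-gated channel of these cells, was lowest at -1.07. Sncg was the one beyond the fold on the higher side, at 0.77, and Adarb2 was also above 0, at 0.19. In R6/1-RGFP109 against R6/1-vehicle their median was -0.15, with 7 of 10 below 0 and Nr2f2 beyond the fold at -0.68. In WT-RGFP109 against WT-vehicle the median was 0.15 and none passed the fold. Between the RGFP109 groups 5 of 10 were lower by over 0.5, with a median of -0.54. That median lay nearer to the -0.71 of the peptide genes than the -0.19 of the glutamatergic markers did. For R6/1-RGFP109 against WT-vehicle 4 were lower and 1 higher, with a median of -0.42. Their sum was 166 to 173 FPKM in WT-vehicle, 135 to 139 in R6/1-vehicle, 188 to 195 in WT-RGFP109 mice and 126 to 130 in R6/1-RGFP109 mice. Lamp5 had the highest level of the list, and none was at 0.

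Striatal projection neuron markers, led by Ppp1r1b (DARPP-32), were lower in R6/1-vehicle for 8 of 8 genes with a median of -1.31, close to the -1.36 of the peptides. Unlike the peptide genes, all 8 lay slightly below 0 in R6/1-RGFP109 against R6/1-vehicle, with a median of -0.14. Their sum was 901 to 932 FPKM in R6/1-vehicle and 810 to 835 in R6/1-RGFP109. Markers of striatal interneurons, led by Pvalb, had medians of -0.85 for the genotype and -0.11 for the drug in R6/1 mice.

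**Figure D3:**
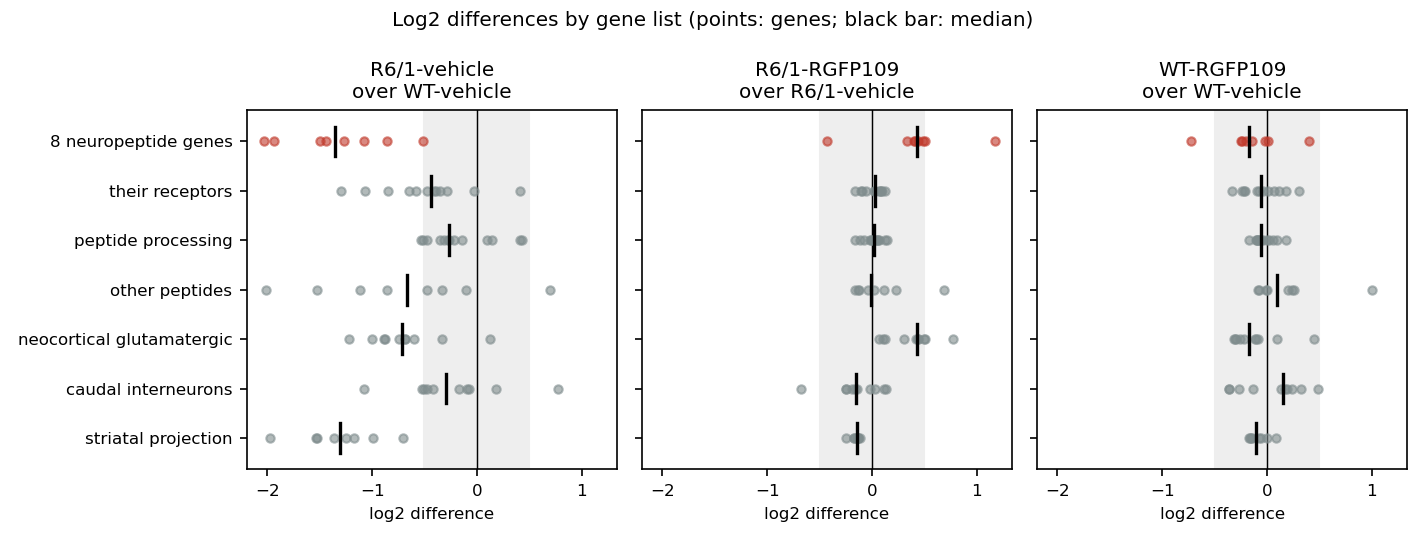
Log2 differences (x axis) of single genes (points) in 7 gene lists (y axis) for 3 comparisons, 1 panel each, with the median of a list as a black bar and -0.5 to 0.5 in gray. Genes under a mean of 1 FPKM in the pair are left out. For R6/1-RGFP109 over R6/1-vehicle the medians of the peptide genes and of the neocortical glutamatergic markers lie at 0.43, and those of the other 5 lists shown between -0.15 and 0.03. The lists of bordering tissue are not shown.

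Tissue that borders the striatum also differed between groups. The sum of 8 choroid plexus genes, mostly Ttr, was 1663 to 1724 FPKM in WT-vehicle, 760 to 791 in R6/1-vehicle, 408 to 423 in WT-RGFP109 mice and 108 to 111 in R6/1-RGFP109 mice. These sums were lowest in R6/1-RGFP109, as was Grp, while the other 7 peptide genes were lowest in R6/1-vehicle. The sum of 8 hypothalamic genes, led by Trh and Avp, was 31.6 to 32.8 FPKM in WT-vehicle, 7.45 to 7.72 in R6/1-vehicle, 23.9 to 24.8 in WT-RGFP109 mice and 22.9 to 23.7 in R6/1-RGFP109 mice, so that R6/1-vehicle was lowest here too. The 4 olfactory bulb genes summed to 6.84 to 7.10 FPKM in WT-vehicle and 4.12 to 4.27 in R6/1-vehicle. With RGFP109 they summed to 13.2 to 13.7 FPKM in WT and 4.83 to 4.99 in R6/1 mice, so that R6/1-vehicle was again lowest. The 4 thalamus genes summed to 12.0 to 12.4 FPKM in WT-vehicle and 12.9 to 13.4 in R6/1-vehicle. With RGFP109 they summed to 14.5 to 15.1 FPKM in WT and 11.7 to 12.1 in R6/1 mice. The part of these tissues in the peptide values was not tested.

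The receptors and binding proteins of the 8 peptides were examined as a list of 17 genes. In R6/1-vehicle against WT-vehicle 12 had a mean of at least 1 FPKM, 5 of them were lower by over 0.5, none was higher, and the median was -0.44. Crhbp, which binds and sequesters corticotropin-releasing hormone, stood at -1.30. Cckbr, the main brain receptor for cholecystokinin, stood at -1.06, Sstr2, which binds cortistatin and somatostatin, at -0.85, and Vipr1 at -0.65. Crhr2 was at -0.58 from a low level of 1.36 FPKM in WT-vehicle. The remaining receptors did not pass the fold. Of these, Adcyap1r1, the PACAP receptor and the most abundant of the list with 41.8 FPKM in WT-vehicle, stood at -0.03, and Npr2 at 0.41. Crhr1, Sstr3, Sstr4, Sstr1 and Tacr3 lay between -0.47 and -0.28. Grpr, Cckar, Vipr2, Sstr5 and Npr3 were under the minimum of 1 FPKM, so that the only listed receptor for Grp was at 0.126 FPKM in WT-vehicle.

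The receptor list was read for the drug in the same way. In R6/1-RGFP109 against R6/1-vehicle none of the 11 receptor genes past 1 FPKM lay beyond 0.5 in either direction, and their median was 0.03. Cckbr stood at 0.13, compared with 0.48 for Cck, and Sstr2 at 0.10, compared with 1.18 for Cort. In WT-RGFP109 against WT-vehicle none of 12 passed the fold, and the median was -0.06.

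The enzymes and granins that process and pack peptides varied less. Of 13 such genes, all past 1 FPKM, 2 were lower by over 0.5 in R6/1-vehicle against WT-vehicle, Chgb (chromogranin B) at -0.53 and Tpst2, a tyrosine sulfotransferase of the kind that modifies cholecystokinin, at -0.51. Their median was -0.27. Cpe, the carboxypeptidase that trims most neuropeptides, was at -0.35 from 1487 FPKM, and the convertase Pcsk2 at -0.47. Pcsk1, the other main convertase, stood at 0.41 and Scg5, the chaperone of Pcsk2, at 0.43. None of the 13 passed the fold after RGFP109 in either genotype, with values from -0.16 to 0.15 in R6/1 mice.

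Among 8 other peptide genes of the striatum and cortex, 4 were lower and 1 higher by over 0.5 in R6/1-vehicle. Penk, which encodes enkephalin precursor in projection neurons, stood at -2.01, Cartpt at -1.53, Npy at -1.12 and Sst at -0.85, while Nts (neurotensin) stood at 0.70. Pdyn, Pnoc and Tac1 did not pass. In R6/1-RGFP109 against R6/1-vehicle Cartpt alone of these 8 passed, at 0.69. Sst at -0.03 and Npy at 0.02, both products of interneurons, differed little there, while Cort, the relative of Sst, was at 1.18.

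The 8 peptide genes were not alike in their pattern over the groups. With each group set against WT-vehicle, Nppc lay nearest to the median of the 8 in the 3 log2 differences (Euclidean distance 0.10), followed by Cck at 0.20. Vip at 1.01 and Adcyap1 at 1.11 lay farthest. Vip was lower than the median in both R6/1 groups and Adcyap1 higher. Among 13715 genes with a mean of at least 1 FPKM over the groups, the 5 nearest genes outside the list were Wnt9a (0.08), Kcng2 (0.12), Gfra2 (0.12), Rtn4r (0.13) and C130074G19Rik (0.14). Gfra2, the receptor for neurturin, had a mean of 12.4 FPKM in WT-vehicle, 4.62 in R6/1-vehicle, 10.5 in WT-RGFP109 mice and 6.56 in R6/1-RGFP109 mice over its 3 tables. Rtn4r, which encodes a Nogo receptor, had 23.1, 9.71, 20.8 and 12.0 FPKM in the same order. Likeness here is over 4 group values and says nothing of shared function.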

How the data were processed

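Striatal RNA libraries (TruSeq kit, single-end reads) were made from 1 hemisphere per mouse, 24 mice in all. The authors aligned reads with STAR 2.5.0b to RefSeq transcripts of mm10, computed FPKM with Cufflinks 2.2.1 and ran Cuffdiff on each pair of groups. The 6 deposited tables each give a single FPKM per group for every gene. R6/1 is written MUT in these tables. The columns of fold change, test statistic, p-value, q-value and significance hold the authors' own comparisons and were not used, nor were values per library. The libraries were sequenced in pools that mixed the groups, and pooled values cannot be split by pool. The depth per library is unknown, so no interval or floor is given.

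Differences were log2((FPKM + 0.1)/(FPKM + 0.1)) within the table of a pair, in 5 comparisons. The table of R6/1-vehicle and WT-RGFP109 served for levels only. Genes with a mean of at least 1 FPKM in the pair were the background, and 0.5 was the fold counted. No test was possible with 1 value per group. The members and the lists (receptors, processing genes, other peptides and markers of neocortical, caudal interneuron, striatal, choroid plexus, hypothalamic, olfactory bulb and thalamic cells) were chosen with earlier results of these data known. Named genes were all members, list genes with a mean of at least 1 FPKM, the highest genes of each marker list, and the 5 genes nearest to the members' median pattern. Other marker genes were named after their values were seen. Marker genes that are not named are given only in the counts and sums of their list. Coordinates follow mm10 as in the tables, with starts moved to 1-based counting. The counting was also run on WT-vehicle values multiplied by set folds without noise, which checks its arithmetic only and says nothing of replicate error. Alternatives covered the pseudocount, the FPKM minimum, the fold and the averaging of tables. Python 3.11.15, numpy 2.4.6, pandas 2.3.3 and matplotlib 3.10.9 were used.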

Additional observations from a re-analysis of the deposited data

How the results depend on the processing

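With 1 FPKM added in place of 0.1, the median of the 8 peptide genes was -1.04 for R6/1-vehicle over WT-vehicle, -0.61 for R6/1-RGFP109 over WT-RGFP109 and -0.72 for R6/1-RGFP109 over WT-vehicle, and 1 gene was higher by over 0.5 in R6/1-RGFP109 over R6/1-vehicle. With a minimum mean of 5 FPKM, 4 genes were left and were lower in each of these 3 comparisons (4, 4 and 4), the first median was -1.72, 1 gene was higher in R6/1-RGFP109 over R6/1-vehicle and 0 were lower in WT-RGFP109 over WT-vehicle. With a fold of 1, 2 genes were lower in R6/1-RGFP109 over WT-RGFP109, 3 in R6/1-RGFP109 over WT-vehicle and 0 in WT-RGFP109 over WT-vehicle, and 1 was higher in R6/1-RGFP109 over R6/1-vehicle. With a fold of 0.25, 7 genes were higher and 1 lower in R6/1-RGFP109 over R6/1-vehicle and 1 was higher in WT-RGFP109 over WT-vehicle. How many of all genes passed these other folds was not counted, so the counts have no background. These shifts follow from the arithmetic of the settings. With 1 FPKM added, 18 of 40 values of single peptide genes moved by more than 0.1 from the value reported and 22 did not. Over all alternatives 201 of 219 such values stayed within 0.1 and 0 changed sign. That total is no measure of stability. A changed FPKM minimum cannot alter the value of a gene, and subtracting the median of all genes shifted every gene alike and only slightly. Leaving out single libraries could not be run on pooled values. No paired analysis was possible because the deposited columns hold 1 pooled value per group and carry no replicate numbers.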
